A study of Mus musculus with 6 samples.

Results

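Interleukins are secreted signals of immune and tissue cells, and the 82 rows described here hold interleukins, their receptor chains, antagonists and binding proteins in the distal colon of TNFR2 knockout and wildtype mice. They are the 82 rows of the deposited table, of 23108 with a gene name, whose symbol begins with Il and a digit. The table holds 84 such rows, and the other 2 are not reported here. By role, 37 of the 82 are ligands, 38 receptor chains, 3 decoy receptors that bind a ligand without signalling, 2 receptor antagonists and 1 a binding protein. The last row is the enzyme gene Il4i1, which shares its name only and whose value is merged with that of Nup62. Messenger RNA was sequenced from 3 wildtype C57Bl/6 males (WT) and 3 males of the same labelled strain that are TNFR2-/- (KO), which lack the second receptor for tumor necrosis factor. They were 8 weeks old, were separate mice per the design text, and received no treatment that the labels name. Values are in FPKM, fragments scaled by transcript length and by library size, so levels of different genes can be set side by side per length. The labels name neither a promoter or cell type for the deletion nor the deleted part of the gene.

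Interleukin receptors are built from chains that many ligands share. The common gamma chain serves the receptors for IL-2, IL-4, IL-7, IL-9, IL-15 and IL-21, gp130 serves those for IL-6 and IL-11, and the IL-10 receptor beta chain serves those for IL-10 and IL-22. Most of these receptors signal through JAK kinases and STAT proteins, while those of the IL-1 and IL-17 families use their own adaptor proteins. In the colon, IL-22 and IL-17 act on the epithelium, IL-10 restrains macrophages, and IL-15 and IL-7 sustain lymphocytes.

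Tnfrsf1b, the gene of TNFR2, measured 7.49, 8.20 and 8.17 FPKM in the WT mice and 1.17, 1.12 and 0.924 FPKM in the KO mice. Summed FPKM lay between 655274 and 709593 per library. Relative depth, read from the steps of low values, lay between 0.736 and 1.10 times that of wildtype library 1. Markers of colonic epithelium were abundant in each library. Their summed level was 3919 to 5632 FPKM in WT mice and 4153 to 5699 FPKM in KO mice, over 7 genes. The libraries stood apart in genes of skin and skeletal muscle. Summed over 17 keratinocyte markers of skin, levels were 1836, 930.0 and 2002 FPKM in wildtype libraries 1, 2 and 3 and 343, 1016 and 1659.9 FPKM in KO mice 1, 2 and 3. For 9 skeletal muscle markers the sum was 7398, 2271 and 2640 FPKM in the WT mice and 127, 1671 and 1191 FPKM in the KO mice. Wildtype libraries 1 and 3 were the highest and knockout library 1 the lowest in both lists. Sums over 8 macrophage and dendritic cell markers were 455, 401 and 420 FPKM in WT mice and 333, 338 and 230.0 FPKM in KO mice, and did not overlap. All these values are of bulk tissue, in which fewer cells of a type and less RNA per cell cannot be told apart.

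Receptor chains were far more abundant than the ligands in both genotypes. Summed over the mean of the 6 libraries, the 38 receptor chains came to 253 FPKM and the 37 ligands to 45.5 FPKM. A mean of at least 1 FPKM was reached by 21 receptor chains and 8 ligands. Only 1 ligand, Il15, had a mean above 10 FPKM, against 6 receptor rows. At the other end, 23 ligands had a mean under 0.1 FPKM. The 9 genes listed at 0 in all 6 libraries were the ligands Il17a, Il22, Il24, Il3, Il9, Il28a, Il28b and Il31 and the accessory protein gene Il1rapl2. A listed 0 can also be a failed estimate, so it is given here as listed. A further 17 genes were at 0 in at least 1 library.

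Set out by signalling system, the epithelial receptors for IL-22, IL-13 and IL-17 were present while their ligands were at or near 0. Il22 was listed at 0 throughout, whereas its specific receptor chain gene Il22ra1 averaged 14.9 ± 2.23 FPKM in WT mice and 17.4 ± 1.00 FPKM in KO mice (SD, n = 3 each). Its partner chain gene Il10rb, at 45.3 ± 5.85 and 48.4 ± 5.84 FPKM, had the highest mean over the 6 libraries, just above the merged row of Il17rc and Il17re, which was higher in the WT mice. Il13 was above 0 in 1 library, knockout 1, at 0.0317 FPKM, and Il4 in 2, while the receptor chain gene Il13ra1 averaged 29.4 ± 1.64 and 30.3 ± 3.97 FPKM. Il17a was listed at 0 and Il17f reached at most 0.129 FPKM, beside 48.2 ± 4.24 and 44.8 ± 6.87 FPKM for the merged row of the receptor genes Il17rc and Il17re. The reverse held for IL-7 and IL-15, ligands made by epithelial and stromal cells. Il7 averaged 5.50 ± 0.977 and 6.55 ± 1.05 FPKM, above its lymphocyte receptor gene Il7r at 0.636 ± 0.0167 and 0.490 ± 0.0783 FPKM.

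**Figure D1:**
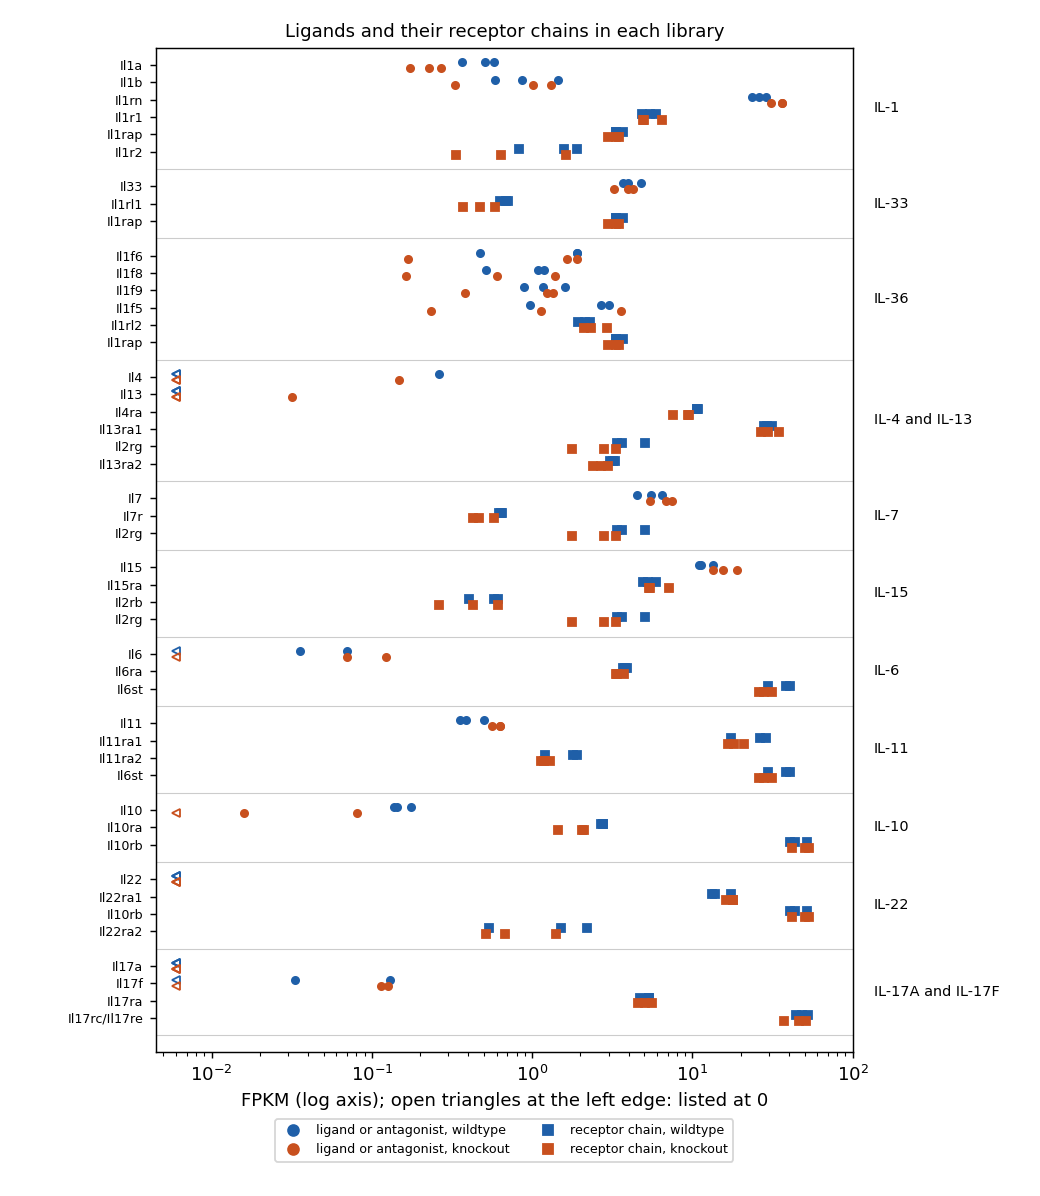
FPKM of ligands (circles) and receptor chains (squares) in each of the 3 wildtype (blue) and 3 knockout (orange) libraries, grouped by signalling system on a log axis, with values listed at 0 as open triangles at the left edge. Receptor chains such as Il22ra1 and Il10rb lie far to the right of their ligand Il22, which is listed at 0, while Il7 lies to the right of Il7r.

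Between the genotypes, none of the interleukin and receptor genes passed the test over all genes. Of the 82, 43 reached a mean level of 0.5 FPKM and entered limma, a linear model with moderated variances, on log2(FPKM + 1). None of the 43 had a Benjamini-Hochberg adjusted p under 0.05, where 0.288% of all 14564 tested genes did, and the smallest adjusted p was 0.212, for Il1rn. At an unadjusted p under 0.05 there were 8 of 43, 3 with higher and 5 with lower levels in the knockout, beside 16.2% of all tested genes (6.3% higher and 9.91% lower). The 2 genotypes had separate ranges in 11 of the 43, 4 higher and 7 lower in the knockout, beside 21.8% of all tested genes (9.3% higher and 12.5% lower). The counts of 8 and 11 stand near those shares. Mean levels were lower in the knockout for 29 of the 43, with a median log2 change of -0.13, and for 57.2% of all tested genes, with a median of -0.03. With each library divided by its median the medians were -0.09 and 0.02, and after quantile normalization -0.04 and 0.03. The authors' deposited table holds 0 of the 82 genes at an adjusted p under 0.05, where 1.02% of its rows are, and 1, Il1rn, at a p-value under 0.05.

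**Figure D2:**
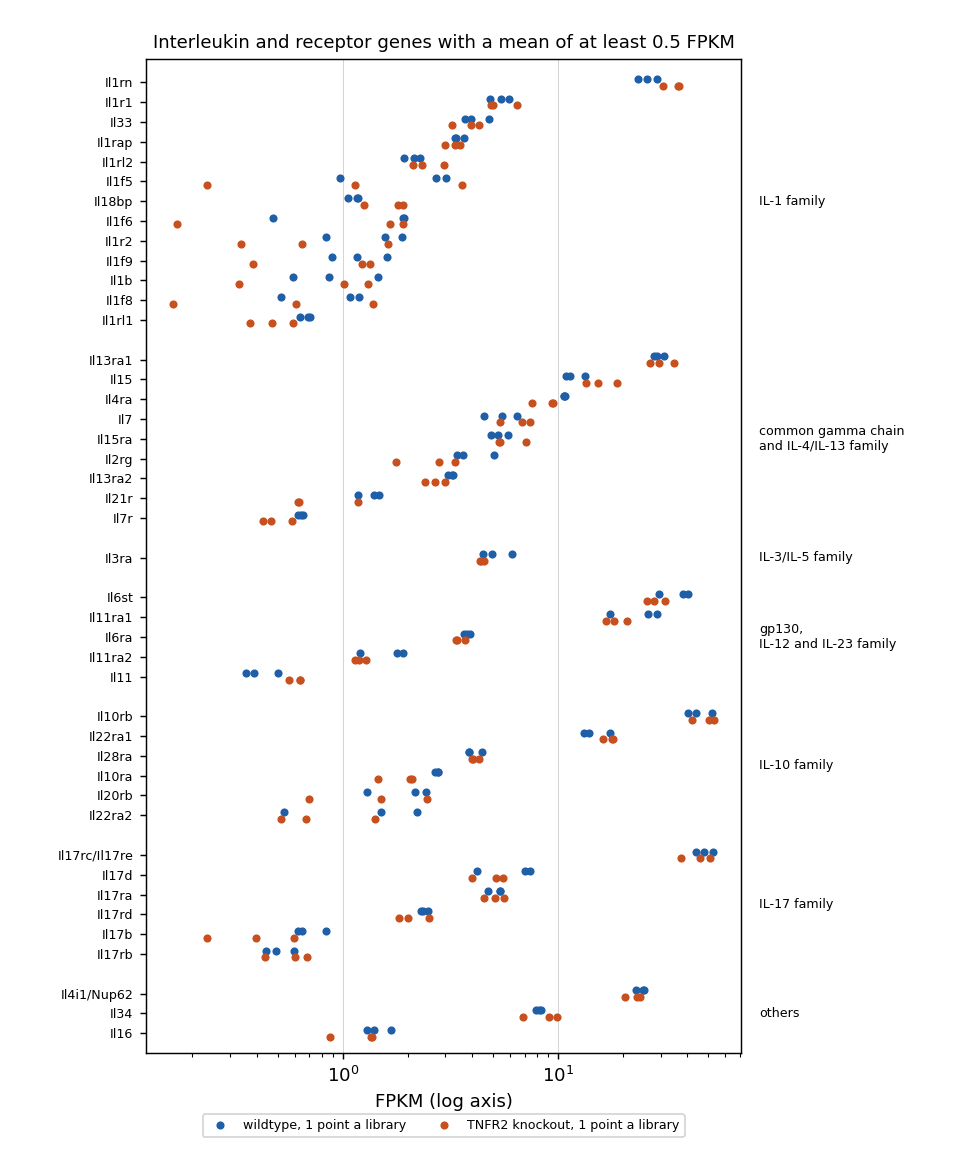
FPKM in every library (log axis) of the 43 tested genes, grouped by receptor family, with wildtype in blue and knockout in orange. Within most genes the 2 colours overlap, and the spread within a genotype is widest for Il1f5, Il1f6 and Il1f8.

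**Figure D3:**
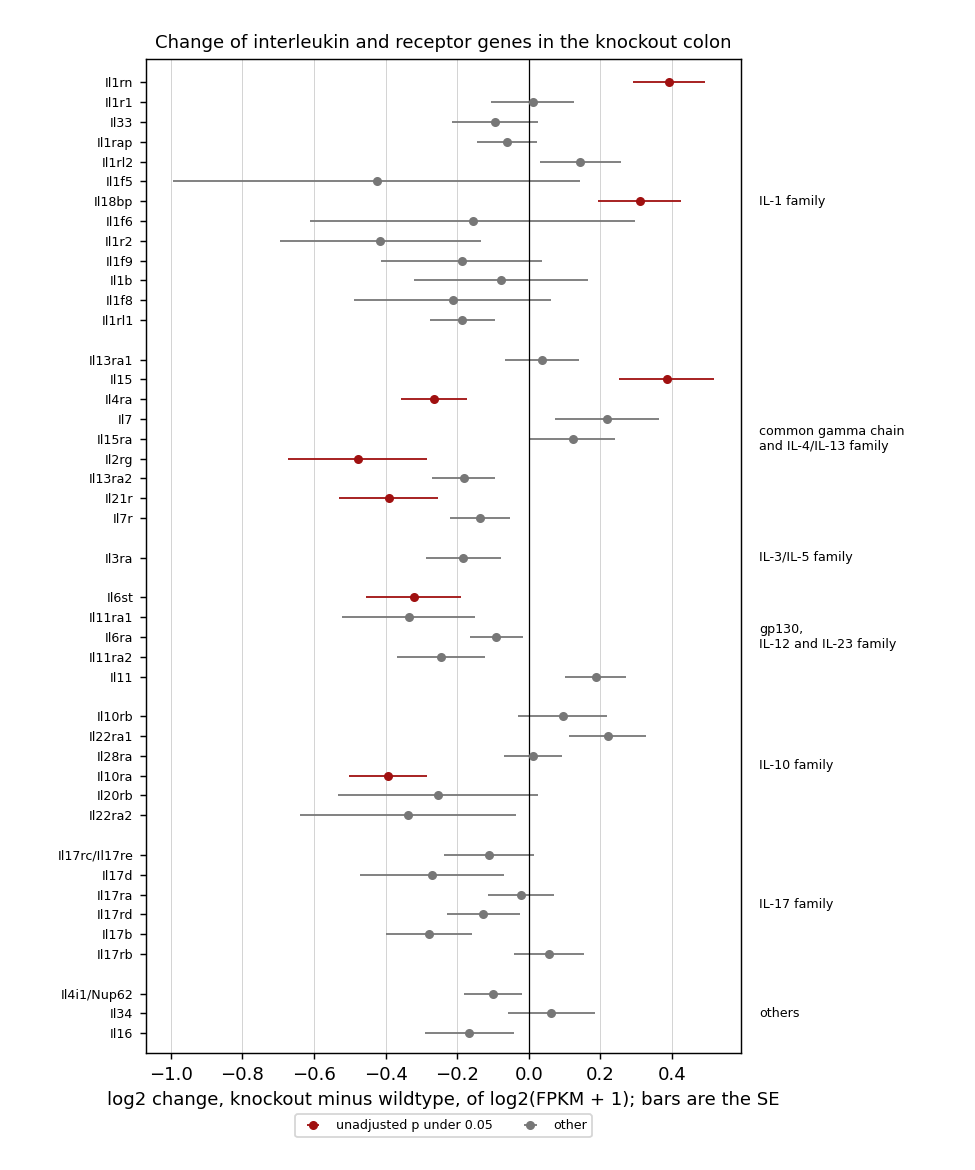
Log2 change, knockout minus wildtype, on the scale of log2(FPKM + 1) with its SE for the same 43 genes. Il1rn, Il15 and Il18bp (red) lie to the right of 0 and Il10ra, Il4ra, Il21r, Il2rg and Il6st (red) to the left, and none passed the adjusted threshold.

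Il1rn, the IL-1 receptor antagonist that occupies the IL-1 receptor without signalling, had the smallest p of the set. It measured 23.6, 28.9 and 25.9 FPKM in the WT mice and 30.9, 36.3 and 36.4 FPKM in the KO mice. All 3 knockout libraries were above all 3 wildtype libraries, with the closest values in wildtype 2 and knockout 1. Its knockout mean was 132% of the wildtype mean, a difference of 0.39 ± 0.10 (SE) on the log2 scale by limma (Benjamini-Hochberg adjusted p = 0.212). In the authors' deposited table its p-value is 0.0352 and its adjusted p-value 0.752. The antagonist was far more abundant than the cytokines it blocks. Il1b, the IL-1 form released by myeloid cells, spanned 0.588 to 1.46 FPKM in WT mice and 0.329 to 1.31 FPKM in KO mice, with wide overlap. Il1a, the form held in epithelial cells, measured 0.504, 0.364 and 0.581 FPKM in WT mice and 0.173, 0.226 and 0.269 FPKM in KO mice. These groups did not overlap, and the knockout mean was 46.0% of wildtype. With a mean of 0.353 FPKM, Il1a did not enter the main test. In the fit without a minimum level its p was 0.00453 and its adjusted p 0.233 (limma, Benjamini-Hochberg). The authors' deposited p-value for it is 0.160 (Cuffdiff 2). Wildtype 3 and wildtype 1 were its highest libraries and knockout 1 its lowest. That held for the summed keratinocyte list and the summed innate lymphoid and NK cell list too, among others. The part of these lists in the values of Il1a was not tested.

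Il1rn lies on chromosome 2 (24336860 to 24351491, mm10) at the end of a run of IL-1 family genes that holds Il1f8, Il1f9, Il1f6, Il1f5 and Il1f10 in that order from 24153172. It is transcribed from more than 1 start, which gives intracellular and secreted forms, and the deposited value covers the forms together. The 250 bases before the first and the last of its 3 RefSeq starts (GRCm38.p6, plus strand) are shown because Il1rn had the smallest p of the set and its starts give different forms. They are followed by the same window of 3 neighbours, Il1f8, Il1f9 and Il1f5 (its first start), whose levels had the same 2 lowest libraries. Il1f6 had these 2 lowest libraries as well, and its window is not shown. Capitals mark matches on either strand to an AP-1 motif (TGANTCA), an NF-kB motif (GGG, any 2 bases, TTTCC) or a STAT motif (TTCNNNGAA).
Il1rn, start 1, chr2:24336610-24336859: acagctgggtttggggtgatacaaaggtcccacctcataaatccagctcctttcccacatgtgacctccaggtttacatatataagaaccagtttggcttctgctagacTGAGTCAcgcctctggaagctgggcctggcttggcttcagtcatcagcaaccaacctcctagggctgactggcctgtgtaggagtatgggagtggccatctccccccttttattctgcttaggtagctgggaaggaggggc
Il1rn, start 3, chr2:24345121-24345370: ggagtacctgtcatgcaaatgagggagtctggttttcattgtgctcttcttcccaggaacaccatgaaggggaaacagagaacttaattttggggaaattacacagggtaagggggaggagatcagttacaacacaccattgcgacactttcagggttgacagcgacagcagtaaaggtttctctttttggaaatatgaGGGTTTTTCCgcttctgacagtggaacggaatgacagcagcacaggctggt
Il1f8, chr2:24152922-24153171: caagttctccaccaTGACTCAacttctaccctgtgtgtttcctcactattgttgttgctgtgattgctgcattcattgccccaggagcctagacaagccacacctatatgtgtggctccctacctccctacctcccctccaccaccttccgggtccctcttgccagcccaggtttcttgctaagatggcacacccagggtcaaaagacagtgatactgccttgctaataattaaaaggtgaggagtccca
Il1f9, chr2:24186226-24186475: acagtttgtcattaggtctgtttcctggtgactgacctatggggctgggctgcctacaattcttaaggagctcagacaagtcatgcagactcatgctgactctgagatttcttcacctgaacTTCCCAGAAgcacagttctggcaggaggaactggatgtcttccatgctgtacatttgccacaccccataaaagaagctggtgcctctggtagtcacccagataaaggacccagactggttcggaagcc
Il1f5, chr2:24276704-24276953: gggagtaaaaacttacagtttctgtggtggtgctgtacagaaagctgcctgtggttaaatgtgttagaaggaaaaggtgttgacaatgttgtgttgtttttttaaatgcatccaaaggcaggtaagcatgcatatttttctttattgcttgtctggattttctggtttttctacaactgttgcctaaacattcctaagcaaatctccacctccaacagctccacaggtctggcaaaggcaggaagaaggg

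The window of Il1rn start 1 held an AP-1 match that begins 141 bases before the start, and that of start 3 an NF-kB match 51 bases before it. Il1f8 held an AP-1 match and Il1f9 a STAT match, 236 and 128 bases before their starts, and the Il1f5 window held none. No matches overlapped. Among 32851 windows of this length in the RefSeq table, 6.75% held the AP-1, 1.41% the NF-kB and 7.02% the STAT motif. Among the 79 windows of the 64 interleukin and receptor genes that the table lists, 14, 6 and 8 did (17.7%, 7.6% and 10.1%). Some genes have more than 1 window, so the windows are not independent, and the difference in shares was not tested. A match describes letters and not a bound site.

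The 4 IL-36 genes of this run are Il1f6, Il1f8 and Il1f9, which encode agonists, and Il1f5, which encodes their antagonist. IL-36 cytokines are known from skin keratinocytes. They differed more between mice than between genotypes, and are singled out here after their values were seen. Il1f5 measured 2.70, 0.970 and 3.02 FPKM in wildtype libraries 1, 2 and 3 and 0.234, 1.14 and 3.59 FPKM in KO mice 1, 2 and 3. Il1f6 measured 1.92, 0.475 and 1.90 FPKM against 0.169, 1.90 and 1.66 FPKM. Knockout library 1 and wildtype library 2 were the lowest for both. The same 2 libraries were the lowest for Il1f8, which spanned 0.163 to 1.38 FPKM, for Il1f9, which spanned 0.382 to 1.61 FPKM, and for the receptor chain gene Il20rb, which spanned 0.697 to 2.46 FPKM. They were also the lowest in the summed keratinocyte list, at 930.0 FPKM in wildtype 2 and 343 FPKM in knockout 1. The summed smooth muscle and fibroblast, enteric neuron and glia, mast cell and neutrophil lists had the same 2 lowest libraries. Il1f6 had the same order of the 6 libraries as the smooth muscle and fibroblast, enteric neuron and glia, and mast cell lists. The part of all these lists in these values was not tested. The decoy receptor gene Il1r2 measured 1.89, 0.832 and 1.57 FPKM against 0.335, 0.643 and 1.62 FPKM, again lowest in knockout library 1. Log2 changes of these 6 genes lay between -0.43 and -0.16, with SEs of 0.22 to 0.57. Without wildtype 1, wildtype 3 and knockout 1, the log2 change of Il1f6 by limma was 0.91. Its levels were then 1.90 and 1.66 FPKM in KO mice 2 and 3 against 0.475 FPKM in wildtype library 2, 1 of its 2 lowest libraries. That fit, added after the values were seen, has 1 wildtype library and assumes that it varies like the others.

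Of the signalling receptors of the IL-1 family, Il1r1, Il1rap and Il1rl2 overlapped between genotypes and Il1rl1 did not. Il1r1, the signalling IL-1 receptor, averaged 5.39 ± 0.532 FPKM in WT mice and 5.46 ± 0.883 FPKM in KO mice (SD, n = 3 each), and the shared accessory chain gene Il1rap 3.44 ± 0.193 and 3.26 ± 0.263 FPKM. Il1rl2, the IL-36 receptor, averaged 2.12 ± 0.190 and 2.46 ± 0.428 FPKM. Il33, an alarmin of stromal and epithelial nuclei, averaged 4.14 ± 0.571 and 3.81 ± 0.537 FPKM. The groups did not overlap for its receptor gene Il1rl1, carried by mast cells, regulatory T cells and innate lymphoid cells. Il1rl1 measured 0.704, 0.630 and 0.691 FPKM in WT mice and 0.470, 0.586 and 0.369 FPKM in KO mice, a difference of -0.19 ± 0.09 (SE) on the log2 scale by limma (Benjamini-Hochberg adjusted p = 0.361). Its order of the 6 libraries was that of the summed macrophage and dendritic cell list. Sums that were also lower in the KO mice without overlap were those of 8 innate lymphoid and NK cell markers, at 108 to 121 FPKM against 82.7 to 95.4 FPKM, and of 6 endothelial markers, at 59.0 to 75.2 FPKM against 39.97 to 55.2 FPKM. The part of these lists in the values of Il1rl1 was not tested. Il18bp, a secreted binding protein, measured 1.17, 1.17 and 1.06 FPKM in WT mice and 1.26, 1.80 and 1.91 FPKM in KO mice. Its groups did not overlap either, and the log2 change was 0.31 ± 0.12 (SE; limma, adjusted p = 0.279). In the authors' deposited table its p-value is 0.737 (Cuffdiff 2). The row of Il18bp overlaps Numa1 on the opposite strand, and strandedness was not given in the sources used here. Such overlaps were also found for Il11ra1 with Ccl27a, Il11ra2 with Ccl27b, Il34 with Mtss1l, Il16 with Stard5 and Il17rb with Actr8. The row of Il4i1 overlaps Atf5 and Tbc1d17 in this way. Among genes below the minimum for testing, so do Il27ra with Palm3 and Il12rb2 with Serbp1, among others. On their own strand, Il2rg and Il10rb overlap the gene models Gm20489 and Gm21970, and the row of Il4i1 overlaps Akt1s1. Il18r1 and Il18rap averaged under 0.25 FPKM.

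Il15, which sustains intraepithelial lymphocytes and natural killer cells, was the most abundant ligand. It measured 11.3, 13.4 and 10.9 FPKM in WT mice and 13.4, 18.9 and 15.4 FPKM in KO mice. The lowest knockout value, 13.43 FPKM, lay just above the highest wildtype value, 13.40 FPKM, so the groups barely parted. Its knockout mean was 134% of wildtype, a difference of 0.38 ± 0.13 (SE) on the log2 scale by limma (Benjamini-Hochberg adjusted p = 0.271). Il15ra, the chain that presents IL-15 to neighbouring cells, averaged 5.34 ± 0.496 FPKM in WT mice and 5.94 ± 1.01 FPKM in KO mice (SD, n = 3 each), with overlap. The lymphocyte chain Il2rb, which receives the signal, averaged 0.532 ± 0.114 and 0.434 ± 0.176 FPKM.

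**Figure D4:**
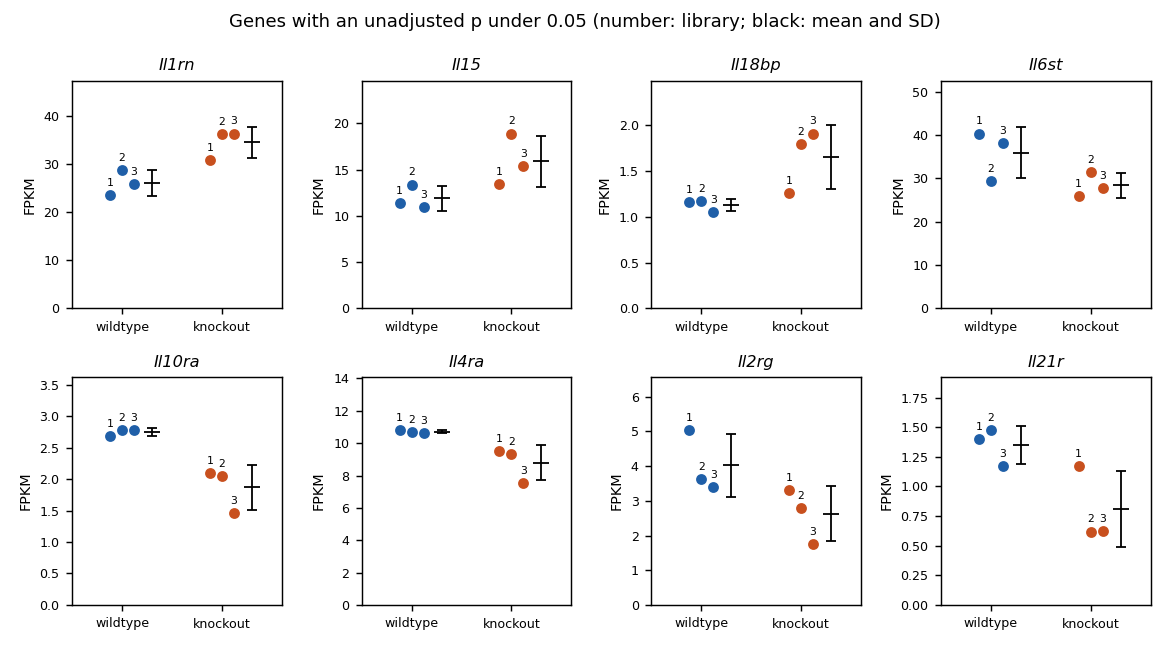
FPKM by library (numbered points) with the mean and SD (black) for the 8 genes with an unadjusted p under 0.05. Il1rn, Il15 and Il18bp are higher in the knockout and the other 5 lower. Il6st and Il21r overlap between the genotypes.

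In the common gamma chain and IL-4/IL-13 family, 9 of 17 genes were tested. Knockout values were below wildtype values without overlap for 4 of them and above for 1, Il15, beside 12.5% lower and 9.3% higher among all tested genes. Il2rg, the common gamma chain, measured 5.05, 3.63 and 3.39 FPKM in WT mice and 3.32, 2.80 and 1.76 FPKM in KO mice, without overlap. Its knockout mean was 65.4% of wildtype (log2 change -0.48 ± 0.19, SE; limma, Benjamini-Hochberg adjusted p = 0.301). Il4ra, the chain shared by IL-4 and IL-13 receptors and present on epithelial and immune cells, measured 10.8, 10.7 and 10.6 FPKM in WT mice and 9.49, 9.34 and 7.55 FPKM in KO mice. The wildtype values were tight and all knockout values lay below them (log2 change -0.27 ± 0.09, SE; adjusted p = 0.273 in limma). Il21r, a receptor of B and T cells, measured 1.40, 1.48 and 1.17 FPKM against 1.18, 0.620 and 0.624 FPKM, with knockout library 1 level with wildtype library 3 (log2 change -0.39 ± 0.14, SE; adjusted p = 0.274 in limma). Il7r, on T cells and innate lymphoid cells, measured 0.617, 0.6499 and 0.640 FPKM against 0.578, 0.466 and 0.428 FPKM, without overlap (adjusted p = 0.449 in limma). Il2ra, the high-affinity IL-2 receptor chain of regulatory T cells, was below the minimum for testing at 0.320, 0.292 and 0.269 FPKM against 0.191, 0.244 and 0.181 FPKM, also without overlap. In all 5 of these genes knockout library 3 or 2 was the lowest. Knockout library 3 was also the lowest of the 6 in the summed T cell (3.85 to 7.84 FPKM), B cell (2.81 to 17.0 FPKM) and macrophage lists, whose part in these values was not tested.

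Other genes of this family differed less. Il13ra2, a decoy for IL-13 made by stromal cells, measured 3.07, 3.20 and 3.27 FPKM in WT mice and 2.40, 2.68 and 2.99 FPKM in KO mice, without overlap (log2 change -0.18 ± 0.09, SE; limma, Benjamini-Hochberg adjusted p = 0.353). Il13ra1, its signalling counterpart, was the most abundant of the family at 29.0, 31.2 and 28.0 FPKM against 34.6, 26.7 and 29.6 FPKM, with full overlap. Il9r, below the minimum for testing, measured 0.142, 0.244 and 0.0916 FPKM in WT mice against 0.106, 0.0694 and 0.0183 FPKM in KO mice. The ligands Il2, Il4, Il13 and Il21 each stayed at or under 0.264 FPKM in every library, and each was listed at 0 in at least 3 of the 6.

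Il6st, which encodes gp130, and Il11ra1, the IL-11 receptor of stromal cells, were highest in wildtype libraries 1 and 3. Il6st measured 40.3, 29.4 and 38.1 FPKM in WT mice and 25.8, 31.5 and 27.8 FPKM in KO mice, with wildtype library 2 below knockout library 2. Its log2 change was -0.32 ± 0.13 (SE; limma, Benjamini-Hochberg adjusted p = 0.302). Il11ra1 measured 28.9, 17.5 and 26.2 FPKM against 16.8, 20.9 and 18.2 FPKM, with overlap. The summed smooth muscle and fibroblast list had the same order of the 6 libraries as Il11ra1. It was at 9276, 5945 and 8262 FPKM in WT mice and 5326, 7240 and 6765 FPKM in KO mice. The enteric neuron and glia list and the mast cell list had that order too. The part of these lists in these values was not tested. With wildtype 1, wildtype 3 and knockout 1 left out, the log2 change of Il6st was 0.01 and that of Il11ra1 0.15, on the other side of 0. Il11ra2, a near-identical copy of Il11ra1 at 1.63 ± 0.377 and 1.20 ± 0.0757 FPKM, may share reads with it, so both values are uncertain.

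Among the ligands of these receptors, Il11, a cytokine of stromal cells, had higher values in the knockout at a low level. It measured 0.356, 0.386 and 0.501 FPKM in WT mice and 0.632, 0.630 and 0.561 FPKM in KO mice, without overlap (log2 change 0.19 ± 0.09, SE; limma, Benjamini-Hochberg adjusted p = 0.336). Il6, an inflammatory cytokine, reached at most 0.123 FPKM and was listed at 0 in wildtype 3 and knockout 3. Il6ra, its receptor on hepatocytes and leukocytes, averaged 3.78 ± 0.1102 and 3.49 ± 0.199 FPKM (SD, n = 3 each). The subunits of IL-12 and IL-23 were at the edge of detection, with at most 0.284 FPKM for Il12a, 0.0827 FPKM for Il23a and 0.0437 FPKM for Il12b. Their receptor genes Il12rb1, Il12rb2 and Il23r stayed under 0.25 FPKM in each library, as did Il31ra and Il27.

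In the IL-10 family the chain that gives IL-10 its specificity was lower in all knockout libraries. Il10ra, carried by macrophages and other leukocytes, measured 2.68, 2.78 and 2.78 FPKM in WT mice and 2.09, 2.05 and 1.46 FPKM in KO mice. The groups did not overlap and the knockout mean was 68.0% of wildtype, a difference of -0.39 ± 0.11 (SE) on the log2 scale by limma (Benjamini-Hochberg adjusted p = 0.222). Il10 itself, which restrains inflammation in the gut, measured 0.176, 0.138 and 0.143 FPKM in WT mice and 0, 0.0806 and 0.0160 FPKM in KO mice. All knockout values lay below all wildtype values, at a level too low to enter the main test. In the fit without a minimum level its p was 0.00327 and its adjusted p 0.225 (limma, Benjamini-Hochberg), and 3 against 3 libraries cannot give an exact permutation p below 0.1. The authors' deposited p-value for Il10 is 0.0702 (Cuffdiff 2). The macrophage and dendritic cell list, at 401 to 455 FPKM in WT mice and 230.0 to 338 FPKM in KO mice, was lower in the knockout as well. By the mean, 8 of its 8 genes were lower, beside 57.2% of all tested genes. The order of the 6 libraries for Il10 was that of the summed skeletal muscle list. That list was at 2271 to 7398 FPKM in WT mice and 127 to 1671 FPKM in KO mice. The part of these lists in the values of Il10ra and Il10 was not tested.

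The steps of low values give an estimate of the few fragments behind Il10. Once each value was scaled by the relative depth of its library, the 6 values were whole multiples of 1 step, within 0.05 of a step. Read as fragments, they were 10, 8 and 6 in the wildtype and 0, 4 and 1 in the KO mice, or 24 against 5 in all. Of 30 genes with a mean above 0 and under 0.5 FPKM, 11 met a window of step size and had at least 4 libraries above 0. In that window, the step times the exon length lay between 0.02 and 0.04 FPKM kb. The window was a fixed setting, and fragment totals of the libraries were not known. Reading 1 step as 1 fragment therefore remains an assumption. For Il1a the numbers were 46, 34 and 39 against 16, 18 and 27 fragments. For Il9r they were 21, 37 and 10 against 16, 9 and 3, and for Il12rb1 21, 16 and 8 against 13, 9 and 3. For Il23a they were only 2, 4 and 1 against 5, 1 and 4 fragments. Sums of the other genes were 82 against 99 fragments for Il27ra, 78 against 82 for Il12rb2 and 9 against 15 for Il31ra. They were 33 against 30 for Il20ra, 28 against 21 for Il12a and 193 against 165 for Il2rb. All these numbers stand at the depth of each library, 0.736 to 1.10 times that of wildtype library 1. Sums of wildtype and knockout are therefore not matched for depth. By mean FPKM the knockout was at 118%, 96.2% and 154% of wildtype for Il27ra, Il12rb2 and Il31ra. For Il20ra, Il12a and Il2rb it was at 81.9%, 69.2% and 81.6%. By whole multiples alone, without the limits on step size and on libraries above 0, 26 of the 30 genes came out whole. So did 64.9% of all 5067 named rows of this low range.

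The epithelial chains of the IL-10 family were close between genotypes. Il10rb measured 40.4, 51.8 and 43.8 FPKM in WT mice and 53.1, 41.9 and 50.3 FPKM in KO mice. Il22ra1, which makes epithelium responsive to IL-22, measured 13.3, 17.4 and 13.9 FPKM against 18.0, 16.2 and 17.9 FPKM, with wildtype library 2 inside the knockout range (log2 change 0.22 ± 0.11, SE; limma, Benjamini-Hochberg adjusted p = 0.359). Wildtype 1, wildtype 3 and knockout 2 were the 3 lowest libraries for both genes and in the summed epithelial list, at 3919, 4592 and 4153 FPKM against 5407 to 5699 FPKM in the others. The part of the list in these values was not tested. Il28ra, the receptor for interferon lambda, averaged 4.06 ± 0.339 and 4.10 ± 0.187 FPKM (SD, n = 3 each). Il22ra2, a secreted decoy for IL-22 made by dendritic cells of lymphoid follicles, measured 1.51, 2.20 and 0.536 FPKM in WT mice and 1.41, 0.677 and 0.513 FPKM in KO mice. Wildtype 2, wildtype 1 and knockout 1 were its highest libraries, and also the 3 highest of the B cell list. That list was at 16.6, 17.0 and 15.5 FPKM in these libraries against 6.35, 4.78 and 2.81 FPKM in the others. The T cell list had the same order of the 6 libraries as the B cell list. The part of both lists in the values of Il22ra2 was not tested. With all 6 libraries its log2 change was -0.34 ± 0.30 (SE; limma, Benjamini-Hochberg adjusted p = 0.595). Without wildtype 1, wildtype 3 and knockout 1 it was -1.01, again against 1 wildtype library. That library, wildtype 2, was the highest of the 6 for this gene, and wildtype 3, left out, lay between knockout 2 and knockout 3. The libraries were chosen after the values were seen, so no conclusion is drawn from this change. The ligands Il19 and Il20 were above 0 in 2 and 1 libraries.

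**Figure D5:**
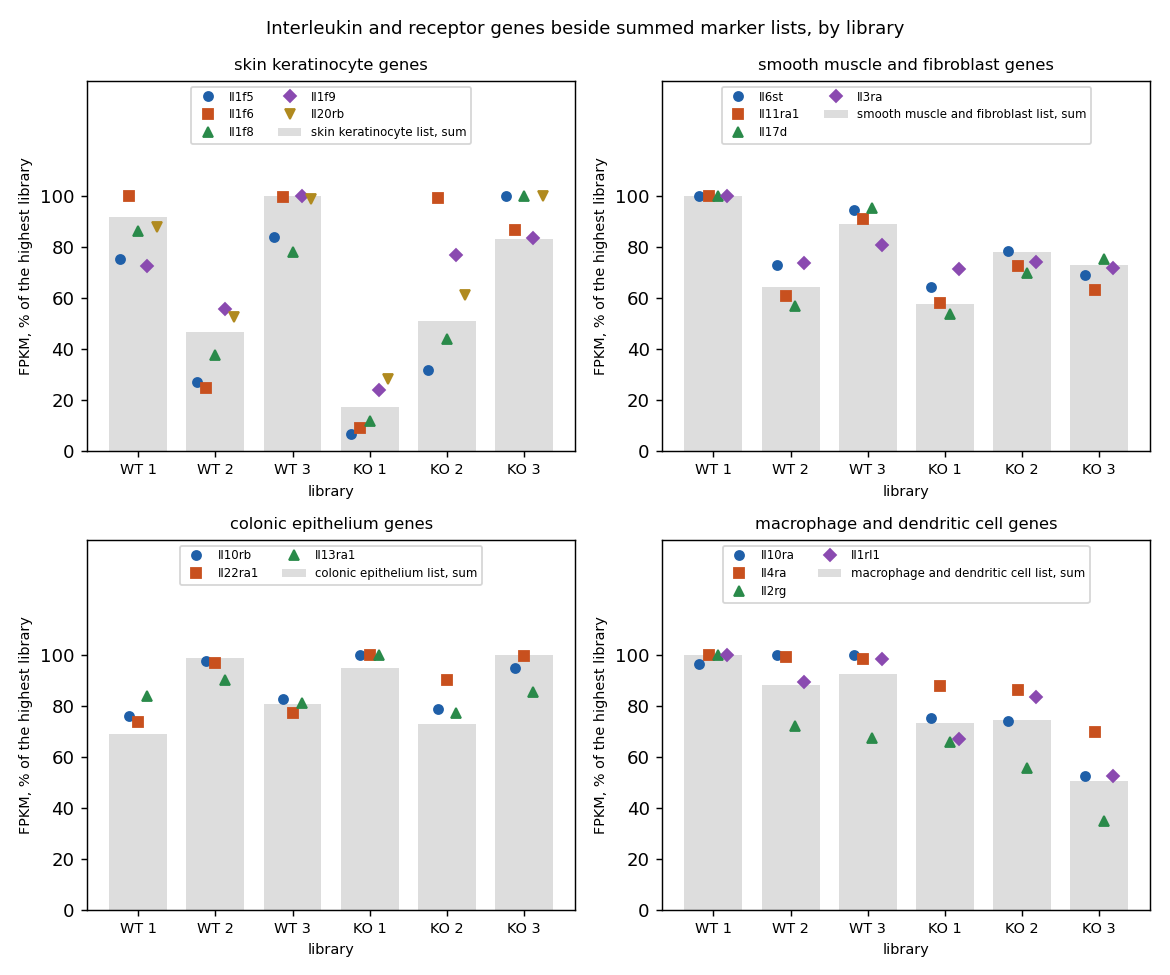
FPKM of selected genes (points) and of a summed marker list (grey bars) in each library, both as a percentage of the highest library. In the skin panel knockout 1 and wildtype 2 are the 2 lowest for Il1f5, Il1f6, Il1f8, Il1f9 and Il20rb, and in the macrophage panel knockout 3 is the lowest for all 4 genes.

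The IL-17 family was led by the merged row of Il17rc and Il17re, receptor chains of epithelial cells, at 44.0, 52.5 and 47.9 FPKM in WT mice and 45.9, 37.4 and 51.0 FPKM in KO mice. The 2 genes cannot be told apart in this row. Il17ra, the chain they pair with, averaged 5.16 ± 0.378 and 5.08 ± 0.522 FPKM (SD, n = 3 each). Il17d, a ligand of stromal tissue, measured 7.40, 4.21 and 7.04 FPKM against 3.98, 5.15 and 5.55 FPKM, highest in wildtype libraries 1 and 3. Those libraries were also the highest in the smooth muscle and fibroblast, enteric neuron and glia, mast cell and keratinocyte lists, among others. Il17b, a weakly expressed ligand, measured 0.835, 0.622 and 0.648 FPKM in WT mice and 0.235, 0.592 and 0.397 FPKM in KO mice, without overlap (log2 change -0.28 ± 0.12, SE; limma, Benjamini-Hochberg adjusted p = 0.313). Its order of the 6 libraries was that of the summed skeletal muscle list, at 2271 to 7398 FPKM in the WT mice against 127 to 1671 FPKM in the KO mice, whose part in these values was not tested. Il17rb, the receptor that binds IL-17B, averaged 0.509 ± 0.0795 and 0.571 ± 0.125 FPKM. Il17rd, an inhibitor of growth factor signals as well as an IL-17 receptor, averaged 2.39 ± 0.0986 and 2.11 ± 0.351 FPKM.

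In the small IL-3 and IL-5 family, Il3ra averaged 5.18 ± 0.833 FPKM in WT mice and 4.42 ± 0.0975 FPKM in KO mice (SD, n = 3 each). Il5ra, the eosinophil receptor, averaged 0.162 ± 0.0368 and 0.215 ± 0.0365 FPKM, and its ligand Il5 was above 0 in 3 libraries, at most at 0.0759 FPKM. Il34, a ligand of the macrophage receptor Csf1r, measured 8.15, 7.88 and 8.38 FPKM in WT mice and 9.13, 9.85 and 6.91 FPKM in KO mice, with the knockout values on both sides of the wildtype ones. Il16, a chemoattractant of CD4 T cells, averaged 1.46 ± 0.192 and 1.20 ± 0.286 FPKM. The row of Il4i1 and Nup62 averaged 24.3 ± 1.16 and 22.6 ± 1.86 FPKM, and what share comes from the nuclear pore gene Nup62 cannot be read from it.

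Genes that carry or answer interleukin signals under other names were likewise not called. Of 88 tested rows from 5 lists, 0 had a Benjamini-Hochberg adjusted p under 0.05 in limma, and 14 had an unadjusted p under 0.05, 4 higher and 10 lower in the knockout. Among all tested genes that share was 16.2% (6.3% higher and 9.91% lower). Among 24 JAK and STAT genes and their inhibitors the median log2 change was -0.04. Stat3 and Jak1, the most abundant, averaged 39.0 ± 2.40 and 28.8 ± 0.889 FPKM in WT mice and 40.2 ± 4.36 and 26.4 ± 2.24 FPKM in KO mice (SD, n = 3 each). Over 25 rows of IL-1 and IL-17 adaptors the median was 0.01. Casp1, which matures IL-1 beta, averaged 54.4 ± 9.31 and 64.5 ± 4.68 FPKM, and Irak1, an adaptor kinase whose row ranged from 18.9 to 192 FPKM, varied widely within both genotypes.

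Receptor chains and cytokines named otherwise had lower means for 13 of 17 genes, with a median log2 change of -0.26. The list holds leukocyte genes, among them Csf1r, the macrophage growth factor receptor, at 73.6% of the wildtype mean and Csf2rb, a chain of the IL-3 and IL-5 receptors, at 69.4%. Csf1r is also 1 of the 8 macrophage and dendritic cell markers, whose sum was 401 to 455 FPKM in WT mice and 230.0 to 338 FPKM in KO mice, and whose part in this list was not tested. Crlf2, the receptor for the epithelial cytokine TSLP, had the smallest p of the 5 lists and was singled out once its values were known. Its levels were 7.73, 6.60 and 6.99 FPKM in WT mice and 5.58, 5.69 and 5.12 FPKM in KO mice, without overlap (log2 change -0.33 ± 0.08, SE; limma, Benjamini-Hochberg adjusted p = 0.206). The most abundant of this list, Ifngr1 and Ifngr2, the chains of the interferon gamma receptor, averaged 122 ± 15.5 and 73.9 ± 9.68 FPKM in WT mice against 141 ± 9.38 and 83.6 ± 5.37 FPKM in KO mice. Of 12 tested rows of IL-22 and IL-17 response genes 8 had a log2 change above 0, with a median of 0.21. By the mean FPKM 10 were higher, since S100a8 and S100a9 had higher means but log2 changes below 0. Pigr, which carries IgA across the epithelium, and the mucosal scavenger gene Dmbt1 led them at 510 ± 69.5 and 346 ± 54.8 FPKM against 689 ± 111 and 418 ± 66.4 FPKM. Duox2, an epithelial oxidase, measured 3.81, 5.59 and 4.42 FPKM against 10.9, 6.96 and 6.66 FPKM, without overlap (Benjamini-Hochberg adjusted p = 0.229 in limma). Lcn2, an iron-binding antimicrobial protein, was at 51.9% of the wildtype mean, with overlap. Duox2, Lcn2 and the genes lower in the next list were chosen after their values were seen. Reg3b, an antimicrobial lectin induced by IL-22, was listed at 0 in all 6 libraries. Of 10 tested IL-4 and IL-13 response genes 8 were lower by their mean (median log2 change -0.25). Clca3, a goblet cell product, and the epithelial cadherin gene Cdh1 led that list at 472 ± 78.9 and 203 ± 24.2 FPKM against 545 ± 113 and 215 ± 28.3 FPKM. These were the 2 genes of the list with higher means. Among the 8 lower ones, Mrc1, the mannose receptor of macrophages, measured 11.6, 9.41 and 10.2 FPKM in WT mice and 8.52, 8.43 and 6.59 FPKM in KO mice, without overlap (Benjamini-Hochberg adjusted p = 0.249 in limma). Arg1, an arginase of macrophages and other cells, was at 39.8% and Ccl11, an eosinophil chemoattractant, at 67.4% of the wildtype mean, both with overlap. By the mean, the macrophage and dendritic cell list was lower in the KO mice for 8 of 8 genes, beside 57.2% of all tested genes. Other lists were lower too: smooth muscle and fibroblast (10 of 10), keratinocyte (17 of 17), skeletal muscle (9 of 9), endothelium and B cell (6 of 6 each). Mast cell and enteric neuron and glia genes were lower for 7 of 8 each, T cell genes for 6 of 7 and innate lymphoid genes for 6 of 8. Colonic epithelium was lower for 2 of 7 and neutrophil genes for 2 of 6. No gene of these lists was called, and their part in the values above was not tested.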

How the data were processed

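RNA of 6 distal colons was sequenced after mRNA enrichment. The design text says that the authors aligned reads with Tophat2 and Bowtie2, assembled them with Cufflinks and tested genotypes with Cuffdiff 2. The submitters' processing notes name mm10 as build. Annotation, strandedness and scaling remain not given in the sources used here. For each library the deposited table gives FPKM, per the file headers, together with the authors' group FPKM, log2 fold change, p-value and adjusted p-value.

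Rows with no gene name (6.13%) were left out. Rows with a mean of at least 0.5 FPKM, 14564 in all, were fitted as log2(FPKM + 1) in limma 3.58.1 (R 4.3.3) with trend and robust moderation and no covariates, and p-values were adjusted over all of them by the Benjamini-Hochberg method. Changes on this scale understate those of low genes. The script was tested on simulated data. The genes and lists were chosen with earlier results of these data known. Genes described in full were those with an unadjusted p under 0.05 or with groups that do not overlap among the tested, and the 2 most abundant and the leading ligand of each family. Other genes named were chosen after their values were seen. Relative depth came from the most frequent ratio of values under 0.15 FPKM between libraries. FPKM are not counts, so no counting interval was computed. Positions are 1-based, and promoter sequences are from RefSeq (GRCm38.p6, the assembly of mm10). Same-numbered libraries showed no pairing, so none was modelled. Tables were handled with Python 3.11.15 and pandas 2.3.3.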

Additional observations from a re-analysis of the deposited data

How the results depend on the processing

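No interleukin or receptor gene was called by limma under 16 of 17 alternatives: pseudocounts of 0.1 and 0.5, no minimum level or 1 FPKM, plain variance moderation, median scaling, quantile normalization, the replicate block, small RNA genes left out, a skin covariate, and each library left out. Leaving out wildtype 1, wildtype 3 and knockout 1, added after the data were seen, called 2, Il22ra2 and Il1f6, with 1 wildtype library left. The wildtype library left, wildtype 2, was the highest library for Il22ra2 and among the lowest for Il1f6, so no conclusion is drawn from these calls. The number at an unadjusted p under 0.05, 8 as reported, ranged from 2 (without wildtype 1) to 13 (no minimum level). Pathway genes called numbered 0 throughout.

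Calls over all genes, 42 as reported, were 24 with the replicate block, 22 without small RNA genes, 26 with the skin covariate, 111 with those 3 libraries left out, and 21 (without knockout 3) to 70 (without wildtype 2) with single libraries left out. Correlations of same-numbered libraries' deviations were -0.37, -0.34 and 0.21, and those of differently numbered libraries -0.24 to 0.47. So few libraries cannot settle whether the numbers pair the samples. The replicate block called 0 interleukin and 0 pathway genes.

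Of 24 described genes 15, among them Il1rn, Il10ra, Il15, Il4ra, Il2rg and Il21r, kept their direction in all 17 alternatives or in the 16 that keep them. The other 9 were not called, and changed direction as follows, on the log2 scale. With the skin covariate, Il10rb was at -0.0027, Il13ra1 at -0.0738, Il1r1 at -0.0743 and Il34 at -0.0007. With the 3 libraries left out, Il10rb was at -0.1693, Il11ra1 at 0.1509, Il13ra1 at -0.1446, Il17d at 0.2847, Il22ra1 at -0.0302 and Il6st at 0.0112. With single libraries left out, Il13ra1 ranged from -0.0598 (without knockout 1) to 0.1199, Il1r1 from -0.0992 (without knockout 1; -0.0538 without wildtype 2) to 0.0727, Il34 from -0.0293 (without knockout 2) to 0.1984, and the row of Il17rc and Il17re from -0.2087 to 0.01 (without knockout 2). The causes were not tested. For the 11 genes under 0.5 FPKM read as fragments, sums in wildtype and knockout ranged from 7 and 10 for Il23a to 193 and 165 for Il2rb.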
